A study of Mus musculus with 9 samples.

Results

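The genes described here are the mouse olfactory receptor (OR) genes named Olfr987 to Olfr1318, with any suffix, which were chosen by the number in their names. There are 296 of them in the deposited tables, out of 1248 genes whose names start with Olfr and 23607 genes in all. The other 952 Olfr genes are the comparison, and the 296 are called members. All values come from pS6-IP RNAseq of the olfactory epithelium (OE) of 9 C57BL/6 mice. In this assay, an antibody against phosphorylated ribosomal protein S6 pulls down ribosomes, with their mRNAs, from cells that were recently active. There were 3 mice per group, and each was held for 1 hr with filter paper that carried distilled water (control), 1% heptanal or 100% heptanal. Heptanal is an aldehyde odorant. Each group held 1 mouse of postnatal day 22 (replicate 1), 1 of day 21 (replicate 2) and 1 of day 18 (replicate 3), and the study's methods describe the mice of a replication as littermates of the same sex. The labels name no transgene or deletion.

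Each mature olfactory sensory neuron (OSN) expresses a single OR gene, from one allele. The receptor is a G protein-coupled receptor at the cilia, where it couples to Gnal and to the cyclase Adcy3, and opens the channel that contains Cnga2. ORs arose largely by tandem duplication, so neighbours in a genomic cluster are often near-copies of each other and short sequence reads can match more than 1 of them. All libraries here are pS6-IP of the whole OE. A lower count of an OR can mean fewer OSNs that express it, fewer of those OSNs recently active, or less of its mRNA recovered per OSN. These cannot be told apart.

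The total was 5438494 to 9707592 estimated counts per mouse, and ORs made up 0.143% to 0.866% of it. Counts scaled to the library total with TMM factors are given as CPM. Omp, Adcy3, Cnga2, Gnal and Ano2, which mark mature OSNs, summed to 4237 to 14891 CPM in the 9 mice, and all 5 were tested, so the tissue held the cells its label implies. Markers of other cells of the OE were present as well. The Bowman gland markers Sox9, Aqp5 and Bpifb9b summed to 10741 to 40254 CPM, the 5 sustentacular markers to 2753 to 6440 CPM and the 4 markers of immature OSNs to 269.8 to 612.5 CPM. The 3 mice of replicate 1 stood apart from the other 6 in what follows, so results are given with and without them. Age, litter and any difference in dissection or library between replicates cannot be told apart.

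The members were detected less often than other ORs in every mouse. A gene was counted as detected with at least 1 estimated count. In replicate 1, 33 members were detected in the control, 32 at 1% heptanal and 68 at 100% heptanal. In replicate 2, the same numbers were 131, 68 and 122. In replicate 3 they were 113, 138 and 124. The control and 1% mice of replicate 1 were thus the lowest, and the groups overlapped widely, at 92.3 ± 52.2 members (SD, n = 3) in controls, 79.3 ± 53.9 (SD, n = 3) at 1% and 104.7 ± 31.8 (SD, n = 3) at 100% heptanal. As a share, 10.8% to 46.6% of members were detected per mouse, against 24.8% to 62.7% of other ORs, and the members were below in 9 of 9 mice. Without replicate 1 the means over 6 mice were 39.2% ± 8.44 (SD) for members and 56.2% ± 8.20 (SD) for other ORs.

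Over the 9 mice, 192 members (64.9%) were detected in at least 1 mouse, against 755 of the other ORs (79.3%), and 76 members had no count at all. A listed 0 allows up to 3 counts, which is 5.52e-05% of the smallest library. Such limits cover counting error alone, since PCR copies were not marked by molecular identifiers. Detection in all 9 mice was reached by 6 members (2.03%) and by 149 other ORs (15.7%). The median member had 6 counts over the 9 mice, and the median other OR had 37.4. Part of the gap went with gene type. Of 253 members annotated as protein-coding, 182 (71.9%) were detected, whereas of 25 unprocessed pseudogenes 2 were. Among protein-coding ORs outside the named range, 725 of 861 (84.2%) were detected, so the members were also lower within this class, in 9 of 9 mice.

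The members' share of all OR counts separated replicate 1 from the rest. It was 3.41% in the control, 2.97% at 1% heptanal and 2.84% at 100% heptanal of replicate 1. In replicate 2 it was 9.05%, 5.91% and 7.42% in the same order. In replicate 3 it was 7.46%, 9.47% and 8.99%. No mouse of replicate 1 overlapped any mouse of replicates 2 and 3, while the exposure groups overlapped widely, with means of 6.64% ± 2.91, 6.12% ± 3.25 and 6.41% ± 3.19 (SD, n = 3 each) in controls, at 1% and at 100% heptanal. Without replicate 1 the mean was 8.05% ± 1.36 (SD, 6 mice). The share hardly moved with uniquely mapped counts alone, at 2.67% to 3.23% in replicate 1 and 5.81% to 9.42% in the other 6 mice. The shares of ORs on other chromosomes shifted as well. Chromosomes 7, 11 and 15 were higher in replicate 1 without overlap, with means of 34.1%, 22.4% and 4.26% against 29.8%, 15.6% and 2.51%. Others had lower means with overlap, such as chromosomes 6, 9 and X, at 2.37%, 0.577% and 0.122% against 4.72%, 1.11% and 0.753%. The summed markers of mature OSNs overlapped between replicates, at 5870 to 11774 CPM in replicate 1, 8480 to 14891 in replicate 2 and 4237 to 10558 in replicate 3. Those of immature OSNs were 269.8 to 405.6 CPM in replicate 1 and 398.0 to 612.5 in the others. Most of this sum was Gap43, and the 4 markers did not move together. Gap43 and Dpysl3 were lower in replicate 1 without overlap, and Stmn4 overlapped. Gng8 leaned the other way, with 31.4 to 48.6 CPM in replicate 1 and 21.9 to 35.3 in the others. The part of mature or immature OSNs in the member share was not tested.

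**Figure D1:**
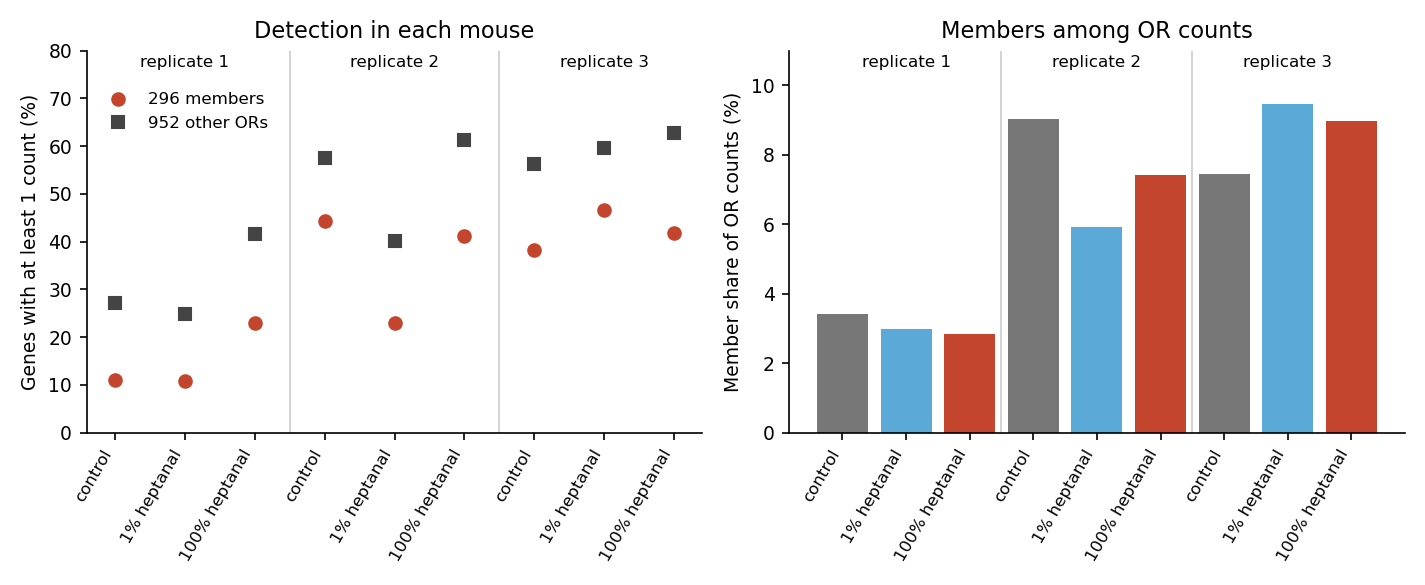
Left, the percentage of the 296 members (circles) and of the 952 other ORs (squares) with at least 1 estimated count in each of the 9 mice, in the order of the 3 replicates. Right, bars give the percentage of all OR counts that fell on members in each mouse. The circles lie below the squares in every mouse, and the 3 bars of replicate 1, at 2.84% to 3.41%, lie below the lowest of the other 6, at 5.91%.

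A comparison of replicate 1 with the mean of replicates 2 and 3, fitted with edgeR over all genes with the exposure group in the model, was added after this separation had been seen. Of the 63 members that passed the filter on low counts, 31 were lower in replicate 1 and 0 were higher at an adjusted p below 0.05. The background of genes lower in replicate 1 was 17.6% of the 14930 genes tested, and among other ORs it was 141 of 385 (36.6%), with 4 higher. The median log2 difference was -3.85 for members and -1.97 for other ORs. The filter favours members that are high in the 6 mice of replicates 2 and 3, so these counts describe the members that passed it and no more. With scaling over ORs alone, 47 members were lower and 2 were higher, against 173 and 42 of the other ORs. The background of that scaling was 10.4% of all genes lower and 40.8% higher, so it moved other genes the opposite way.

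The 10 members with the highest mean CPM were Olfr1212, Olfr1226, Olfr1193, Olfr1260, Olfr1264, Olfr1262, Olfr1261, Olfr1263, Olfr1229 and Olfr1018. All are odorant receptors whose natural ligands are not given in the files. Together the 10 members with the most counts held 47.7% of the members' 24451 counts, against 24.0% for the 10 highest of the other ORs. These shares are not directly comparable, since the sets differ in size, with 296 members and 952 other ORs. A total of 12 of the 296 members made up 50% of all member counts. For the other ORs it took 36 of 952, a similar part of the set, so member counts were about as concentrated. Per kilobase of annotated exon, Olfr1212 was the most abundant, at a mean of 10.5 CPM per kb, followed by Olfr1193 at 4.76 and Olfr1261 at 3.86. In CPM, Olfr1212 ranked 29 among the 1248 ORs, and 8 members were among the 100 highest.

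Olfr1212 (chr2:88953969-88961313, plus strand, GRCm38) had 0.00, 1.33 and 21.7 CPM in the control, 1% and 100% mice of replicate 1. It had 29.3, 59.4 and 75.9 CPM in replicate 2. In replicate 3 it had 14.8, 61.1 and 81.1 CPM. Its control in replicate 1 thus had no count, while the order from control to 1% to 100% was the same in all 3 replicates. Olfr1260 (chr2:89974340-89981586, plus strand) had 0.00, 0.00 and 0.69 CPM in replicate 1, and 1.74 to 50.2 CPM in the other 6 mice. Olfr1226, Olfr1262 and Olfr1229 were likewise at most 2.40 CPM in replicate 1 and reached 70.6, 40.9 and 35.8 CPM in the others. The 1% mouse of replicate 2 was also low for these, with 1.04, 1.39 and 0.00 CPM.

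Not all abundant members were low in replicate 1. Olfr1193 (chr2:88675628-88681143, plus strand) had 17.7, 1.77 and 27.7 CPM there, within the 9.61 to 32.4 CPM of the other mice apart from the value at 1%. Olfr1264 (chr2:90018526-90025577, minus strand) had 16.7, 6.64 and 15.7 CPM in replicate 1 and 2.62 to 26.5 CPM elsewhere. Olfr1264 directly follows Olfr1263 (chr2:90012131-90018424, plus strand), which had 0.00, 0.00 and 9.03 CPM in replicate 1 and 8.47 to 24.96 CPM elsewhere. Adjacent members therefore differed in how they varied between replicates.

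**Figure D2:**
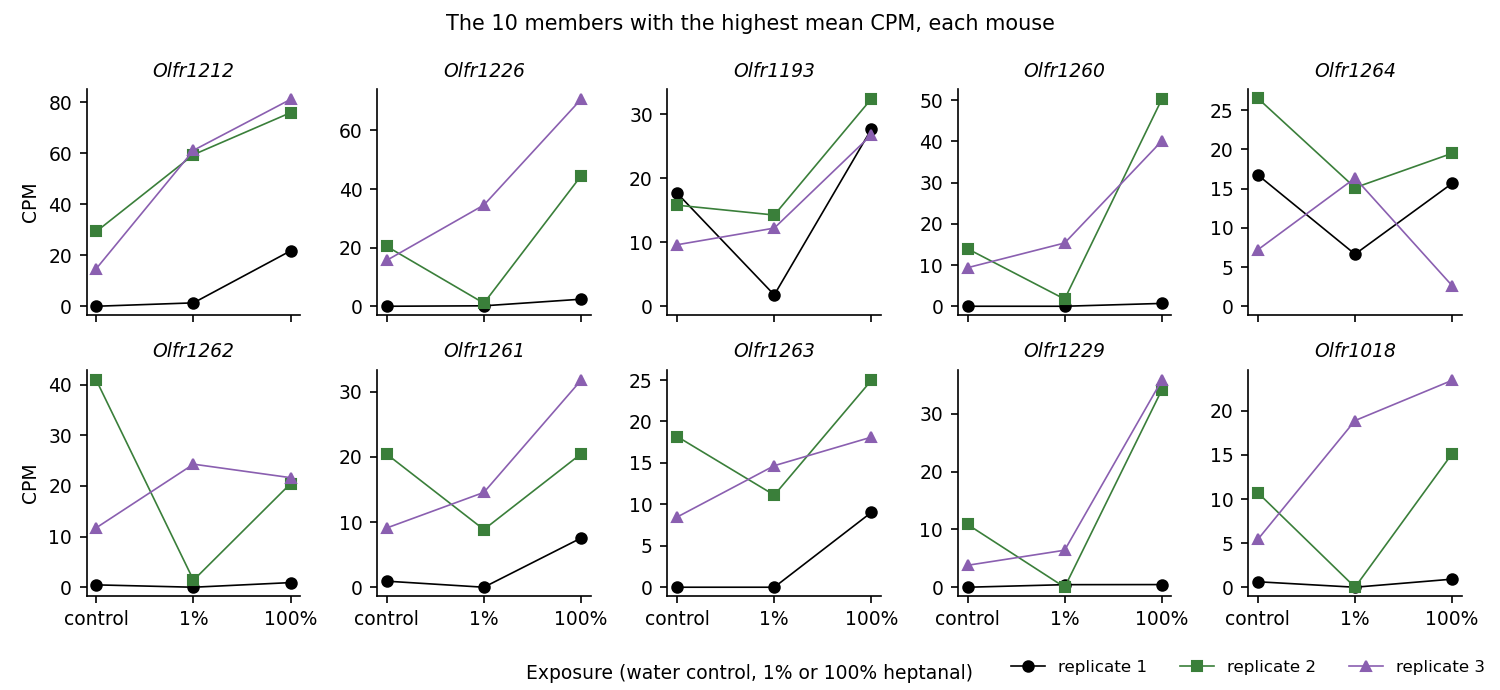
Each panel shows 1 of the 10 members with the highest mean CPM, with CPM on the vertical axis and control, 1% and 100% heptanal on the horizontal axis. Each symbol is 1 mouse and lines join the mice of a replicate. In replicate 1, Olfr1226, Olfr1260, Olfr1262, Olfr1229 and Olfr1018 stay at or below 2.40 CPM, while Olfr1193, Olfr1212 and Olfr1264 reach 27.7, 21.7 and 16.7 CPM and Olfr1263 and Olfr1261 reach 9.03 and 7.54 CPM.

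The names Olfr987 to Olfr1318 do not mark 1 unbroken cluster. Of the 296 members, 292 were found by name in GENCODE M21 and 2 more in RefSeq, both on GRCm38, and 2 were not matched. All 294 lay on chromosome 2, where 251 occupied chr2:85330779-90403897 and 43 occupied chr2:111230360-112159157. The gap between them, from Olfr1274-ps to Olfr1275, was 20.8 Mb. The first stretch held 90.8% of the member counts and the second 9.23%, with 64.1% and 69.8% of their members detected in at least 1 mouse. Within the first stretch, the 105 members at chr2:88000927-90403897 held 73.8% of all member counts, and the 146 before them held 17.0%. In the former, 79.0% were detected in at least 1 mouse, and in the latter 53.4%.

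The 2 stretches were both low in replicate 1. The first had 405.1, 287.1 and 1221 counts in its control, 1% and 100% mice, against 1251 to 5431 in the other 6. The second had 31.3, 16.9 and 102.0 counts, against 131.0 to 626.9. The 2 stretches also hold 16 ORs with names outside the range, which the rule leaves out. The most abundant was Olfr140 (chr2:90049380-90063594), with 9071 counts over the 9 mice, more than any member. Olfr140 had 933.3, 358.9 and 742.9 counts in replicate 1 and 526.9 to 2155 elsewhere, so this close neighbour of Olfr1264 overlapped between replicates.

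**Figure D3:**
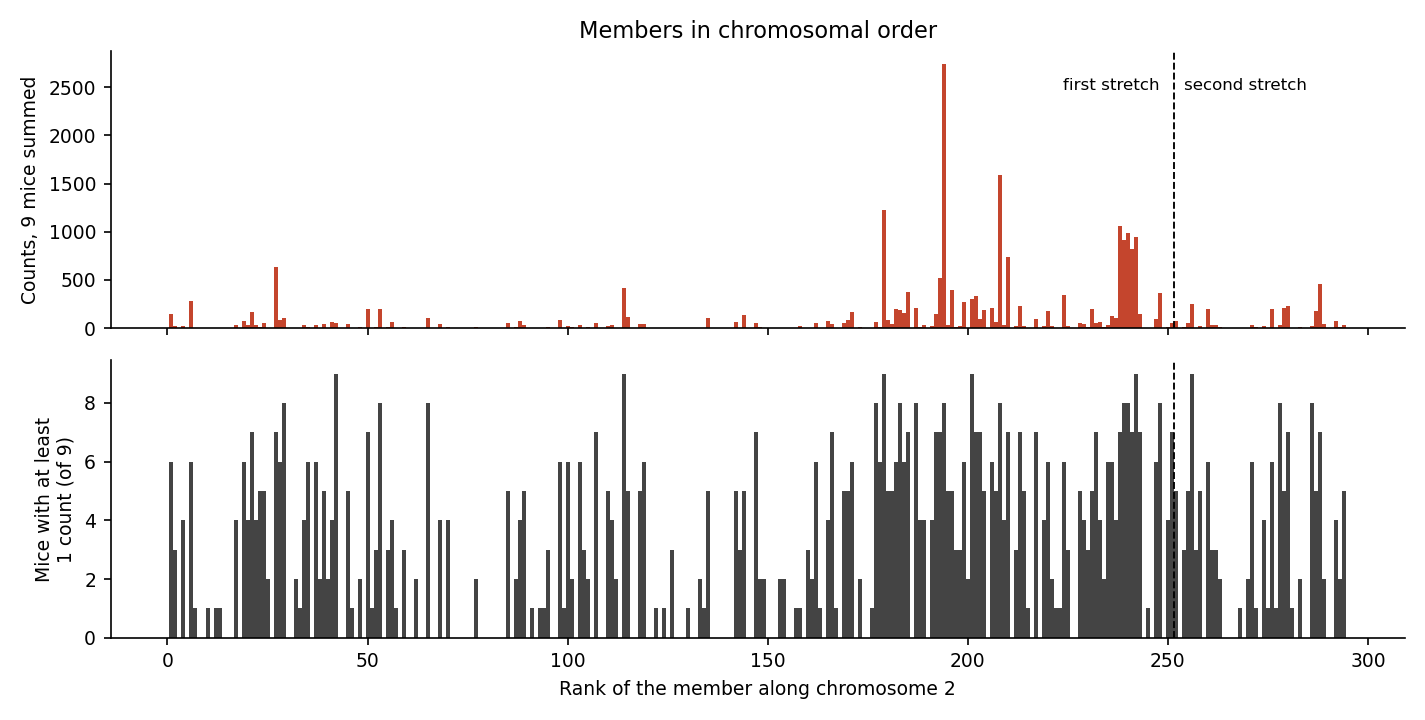
The 294 members with a position, in their order along chromosome 2, with counts summed over the 9 mice (top) and the number of mice with at least 1 count (bottom). The dashed line marks the 20.8 Mb gap between the first stretch of 251 members and the second of 43. The tallest bars lie in the last 105 members of the first stretch, which hold 73.8% of the counts.

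Reads that matched several places contributed about as much to members as to other ORs. The deposited tables have no header. They were read as uniquely mapped counts and estimated counts to which the authors added reads of up to 20 places. The multi-mapped share is the difference over the estimated count. For members it was 16.8%, 10.9% and 15.6% in the control, 1% and 100% mice of replicate 1. In replicate 2 it was 10.2%, 11.9% and 10.5%. In replicate 3 it was 11.2%, 10.6% and 8.20%. The 2 highest values came from replicate 1, where members had the fewest counts. Other ORs had 9.77% to 13.9% and all genes 23.9% to 30.5%. Over the 9 mice together the share was 10.5% for members and 10.4% for other ORs. Reads of exactly 2 places made up 62.96% of the members' multi-mapped counts and 48.8% of those of other ORs.

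Single members ranged far more widely. Among the 50 with at least 100 counts over the 9 mice, the median multi-mapped share was 7.56%, 10 had under 1% and 2 had at least 50%. For the 343 other ORs with as many counts the median was 5.39%. Olfr1279 was highest at 64.0%, followed by Olfr1057 at 57.4%, Olfr987 at 45.1%, Olfr1283 at 38.9% and Olfr1126 at 30.9%. At the other end, 5 members had no multi-mapped count, among them Olfr1018 and Olfr1311 with 637 and 176 counts. Olfr1212 had 0.0333%, so its 2740 counts were almost entirely unique.

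The sequences show how alike the members are. The last 120 coding bases before the stop codon are given, the coding part nearest to the poly-A tail from which the cDNA was primed. Each window lies in a single annotated coding exon. They were read from GRCm38, 5′ to 3′ on the coding strand, and capitals mark bases that differ between a member and the member whose coding sequence is most like it. Olfr1057 and Olfr1062 differ at 17 of 945 coding bases and share a run of 167 identical bases, longer than the 50-base reads.
Olfr1057 (chr2:86374466-86374585, minus strand): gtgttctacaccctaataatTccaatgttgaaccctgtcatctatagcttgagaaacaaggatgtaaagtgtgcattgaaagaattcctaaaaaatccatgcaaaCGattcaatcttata
Olfr1062 (chr2:86422730-86422849, minus strand): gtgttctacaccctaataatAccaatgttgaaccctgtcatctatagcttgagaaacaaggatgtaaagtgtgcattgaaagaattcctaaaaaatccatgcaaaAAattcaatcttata

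Olfr987 and Olfr988 differ at 29 of 927 coding bases and at 1 of these last 120, with 232 identical bases in their longest run.
Olfr987 (chr2:85330970-85331089, minus strand): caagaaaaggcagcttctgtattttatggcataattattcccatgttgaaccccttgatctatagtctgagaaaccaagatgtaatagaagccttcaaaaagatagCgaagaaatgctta
Olfr988 (chr2:85352998-85353117, minus strand): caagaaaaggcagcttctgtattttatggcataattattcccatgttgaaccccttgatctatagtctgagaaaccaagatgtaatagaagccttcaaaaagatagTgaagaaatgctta

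Olfr1261 and Olfr1263, both among the 10 most abundant members, also differ at 1 of the last 120 bases, but at 42 of all 918. Their multi-mapped shares were 16.3% and 13.2%, below those of Olfr1057 and Olfr987.
Olfr1261 (chr2:89994193-89994312, plus strand): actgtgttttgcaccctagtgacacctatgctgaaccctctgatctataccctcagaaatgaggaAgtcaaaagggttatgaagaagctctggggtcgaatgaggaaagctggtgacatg
Olfr1263 (chr2:90015730-90015849, plus strand): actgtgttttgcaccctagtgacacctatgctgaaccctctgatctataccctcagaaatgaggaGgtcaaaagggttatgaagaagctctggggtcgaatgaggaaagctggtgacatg

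Olfr1212 is shown as the contrast. It differs from its nearest relative, Olfr1211, at 35 of the last 120 bases and at 169 of all 933, and their longest identical run of 34 bases is shorter than a read.
Olfr1212 (chr2:88959281-88959400, plus strand): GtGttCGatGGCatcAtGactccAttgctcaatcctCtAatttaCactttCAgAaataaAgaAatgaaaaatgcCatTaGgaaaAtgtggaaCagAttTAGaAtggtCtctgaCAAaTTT
Olfr1211 (chr2:88929381-88929500, minus strand): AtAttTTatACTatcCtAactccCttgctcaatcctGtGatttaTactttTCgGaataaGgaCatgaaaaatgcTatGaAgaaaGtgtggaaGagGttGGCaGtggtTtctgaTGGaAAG

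Across the 50 members, the multi-mapped share went with the share of a gene's exonic 50-base windows that occur again in the genome (Spearman's rho 0.73, Pearson's r 0.62) and with identity to the nearest coding sequence (rho 0.78, r 0.53). These are descriptions over genes, which share libraries and ancestry. Olfr1279 stood off this relation, with 64.0% multi-mapped counts but 7.26% recurring windows. Its exons in GENCODE and the authors' OR models need not match. The recurring share itself was alike in both sets, with a median of 5.23% for 292 members and 5.21% for 944 other ORs. For 245 of 263 members with a coding sequence the nearest relative was another member, and 65 had one at 95% identity or more.

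**Figure D4:**
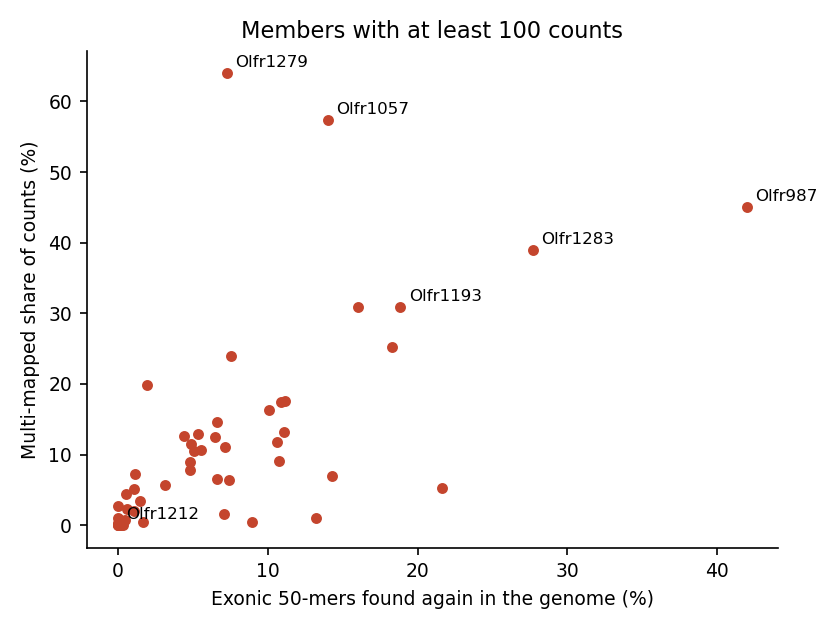
Each point is 1 of the 50 members with at least 100 counts over the 9 mice. The horizontal axis gives the percentage of its exonic 50-base windows found again in the genome and the vertical axis the percentage of its counts from reads of more than 1 place. Olfr987 lies far right at 42.0% and 45.1%, whereas Olfr1279 and Olfr1057 lie high at 64.0% and 57.4% with 7.26% and 14.0% recurring windows.

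The response to heptanal was tested with edgeR's quasi-likelihood test over 14930 genes, with Benjamini-Hochberg adjustment over all of them and a threshold of 0.05. The filter on low counts passed 63 of 296 members (21.3%) and 385 of 952 other ORs (40.4%), so nothing can be said of the response of the other 233 members beyond their low counts. At 100% heptanal against control, 0 of 63 members were called, where the background was 0.0134% of all genes. With the replicate as a block, 0 members were called again, with a background of 0.322%, while 8 of 385 other ORs were called, all higher. The lowest adjusted p of a member was 0.9999 without the block and 0.157 with it. At an unadjusted p below 0.05, 1 member was higher without the block (1.59%), where all genes gave 3.01% and other ORs 15.3%. With the block 12 were higher (19.05%) and 1 was lower (1.59%), where all genes gave 6.63% and 3.79%. Other ORs gave 30.9% and 2.34% in that fit. DESeq2 with the block called 3 members higher (4.76%), Olfr1184, Olfr1200 and Olfr1241, where its background was 1.89% and 49 other ORs (12.7%) were called. Without the block it called 0 members and 18 other ORs, with a background of 0.465%. The study's own edgeR analysis of its pS6-IP reported OR mRNAs enriched at both heptanal concentrations, with more of them at 100% than at 1%. Its methods state neither the design nor the filter of that analysis. The absence of member calls therefore describes the fits used here.

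The median log2 fold change at 100% heptanal was 0.64 for the 63 members and 0.98 for other ORs, against -0.03 for all genes, and with the block it was 0.99, 1.16 and 0.00. Within replicates 1, 2 and 3 the median of members was below that of other ORs by 0.47, by 0.00 and above it by 0.14 on the log2(CPM + 0.5) scale, so the members did not differ from other ORs in a steady direction. The gap in replicate 1 rests on few counts, with 33 members detected in its control and 68 at 100%. Of the members, 24 (38.1%) were higher at 100% in all 3 replicates, as were 170 other ORs (44.2%) and 18.4% of all genes. The 3 values at 100% lay wholly above the controls for 6 members, or 9.52%, where the background was 5.96% of all genes and other ORs reached 21.8%. Summed markers of mature OSNs lay at 10558 to 14891 CPM at 100% heptanal and at 4237 to 8713 CPM in controls, without overlap. Those of sustentacular cells lay at 4923 to 6440 and 2753 to 3561 CPM. The first sum was mostly Omp, with 8711 to 11982 CPM at 100% and 3298 to 6512 in controls. Taken singly, Omp and Cnga2 did not overlap, while Adcy3, Ano2 and Gnal did. Of the sustentacular markers, Cyp2g1 and Cbr2 did not overlap, while Cyp1a2, Ermn and Muc2 did. Their part in the OR values was not tested. Scaling to these 5 OSN markers lowered the median of all genes by 0.80 and left the members at 0.20 and other ORs at 0.39, with the block.

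The 6 members with the lowest unadjusted p at 100% heptanal, in the fit with the block, were Olfr1200, Olfr1212, Olfr1184, Olfr1241, Olfr1260 and Olfr1238. Olfr1200 (chr2:88763511-88770488, minus strand) had 0.00, 1.97 and 3.29 CPM in the controls of replicates 1, 2 and 3. At 1% it had 0.00, 0.87 and 3.84 CPM, and at 100% it had 3.43, 16.8 and 16.3 CPM. The values at 100% lay above all 3 controls, with 3.43 against 3.29 CPM at the closest. Its log2 fold change was 3.28 ± 0.76 (SE) with the block, with an adjusted p of 0.157, and 2.77 ± 1.41 without it. Adjusted over the OR genes tested alone, it was the only member called with the block at 100%, where 40 other ORs were called and the background over the 448 ORs was 9.15%.

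Olfr1212, given above by mouse, had a log2 fold change of 2.86 ± 0.79 (SE) with the block (adjusted p = 0.238) and 2.01 ± 1.45 without. Olfr1241 had 0.00, 0.99 and 0.00 CPM in controls and 1.37, 5.33 and 8.09 CPM at 100%. Olfr1184 had 0.00, 0.00 and 1.52 CPM in controls and 1.26, 8.98 and 5.69 CPM at 100%, so its replicate 1 value at 100% was below the highest control. Olfr1238 had 0.00, 0.42 and 0.63 CPM against 2.17, 4.35 and 1.82 CPM. Olfr1260 had 0.00, 13.9 and 9.35 CPM against 0.69, 50.2 and 40.1 CPM, and here the groups overlapped through replicate 1. All 6 were higher at 100% than in the control of their own replicate in 3 of 3 replicates, and none passed the test. They were chosen by low p in the fit with the block, so this agreement between replicates is no separate support.

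Among the abundant members, Olfr1193 had a log2 fold change of 1.01 ± 0.61 (SE) at 100% without the block and 0.99 ± 0.54 with it. Its 3 values of 26.8 to 32.4 CPM lay above the controls at 9.61 to 17.7 CPM. With scaling over ORs alone and no block its log2 fold change was -0.13, so its direction rested on the scaling. Olfr1264 had the opposite sign, at -0.42 ± 0.72 without the block and -0.47 ± 0.59 with it. It was lower at 100% in 3 of 3 replicates. Its adjusted p was 0.9999 without the block and 0.843 with it. Neither was called in the fits without or with the block, while Olfr1264 was called lower with the block under scaling to OSN markers and under scaling over ORs alone.

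**Figure D5:**
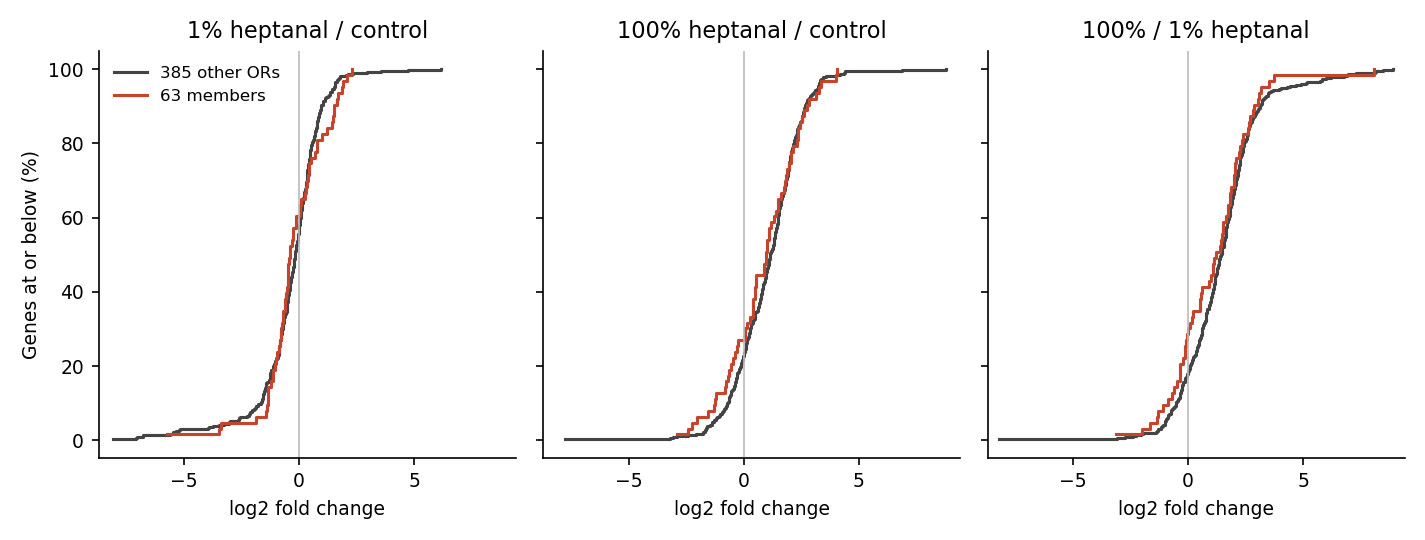
Cumulative percentages of the 63 members (red) and 385 other ORs (grey) that passed the filter, against their log2 fold change in the fit with the replicate block, for 1% heptanal over control, 100% over control and 100% over 1%. At 100% over control the members' median was 0.99 and that of other ORs 1.16, and the curves run close together.

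At 1% heptanal against control, 0 members were called without or with the block, and the background was 0.0% of all genes in either fit. At an unadjusted p below 0.05, 0 members were higher and 1 lower (1.59%) without the block, where all genes gave 0.335% and 0.462%. Of the other ORs, 5 were higher and 15 lower. With the block 0 were higher and 2 lower (3.17%), where all genes gave 1.32% and 1.94%. Of the other ORs, 11 were higher and 27 lower. DESeq2 called 0 members and 1 other OR without the block, with a background of 0.0067%, and 0 members and 3 other ORs with it, with a background of 0.0201%. The median log2 fold change was -0.04 for members and -0.12 for other ORs without the block, and -0.41 and -0.16 with it, so the order of the medians turned with the block. By replicate, the members' median was 0.00, -1.38 and 0.88, so replicates 2 and 3 lay on opposite sides of 0. The 0.00 of replicate 1 rests on few counts, with 33 members detected in its control and 32 at 1%. Other ORs also had 0.00 there. The 4 members with the lowest p with the block were Olfr1126, Olfr1015, Olfr1303 and Olfr1302. Olfr1126 had 0.00, 0.99 and 1.64 CPM in controls, 0 at 1% in all 3 mice, and 0.46, 6.73 and 4.90 CPM at 100%. Olfr1303 had 0.00, 1.27 and 1.39 CPM in controls and 0.00, 4.17 and 7.68 CPM at 1%, with a log2 fold change of 1.92 ± 0.86 (SE) with the block. Olfr1015 and Olfr1302 lay at or below their controls in each replicate, with at most 0.30 and 3.35 CPM at 1% against 2.53 and 9.30 CPM in the highest control.

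At 100% against 1% heptanal, 0 members were called without the block, where the background was 0.0134%, and 0 with it, where the background was 0.0804% and 1 other OR was called. At an unadjusted p below 0.05, 2 members were higher without the block (3.17%), where all genes gave 2.09% and other ORs 16.6%. With the block 13 members were higher (20.6%), where all genes gave 6.74% and other ORs 37.4%. DESeq2 called 5 members higher with the block (7.94%), where its background was 1.41% and 63 other ORs (16.4%) were called. Without the block it called 0 members and 12 other ORs, with a background of 0.168%. The 2 odor comparisons and this one share mice, so they are not independent. Adjusted over ORs alone, 3 members were called with the block, Olfr1126, Olfr1200 and Olfr1260, with adjusted p of 0.0192, 0.0232 and 0.0475, where 62 other ORs were called and the background over ORs was 14.5%. The median log2 fold change was 0.63 for members and 1.18 for other ORs without the block, and 1.22 and 1.43 with it.

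The study examined Olfr1182, Olfr1121 and Olfr1198 in other experiments. It gave Olfr1182 as an OR mRNA that changed with heptanal and not with another odorant, (R)-carvone. That was after weeks of odorized drinking water, in RNA of the whole olfactory mucosa rather than pS6-IP. Olfr1198 had 0.00, 7.05 and 1.01 CPM in controls, 0.59, 1.74 and 1.28 CPM at 1% and 0.57, 4.07 and 7.52 CPM at 100%, with overlapping groups. Its log2 fold change at 100% was 0.59 ± 1.33 (SE) without the block and 1.13 ± 1.01 with it. With scaling over ORs alone and no block it was -0.011. Olfr1182 and Olfr1121 did not pass the filter, with 49.3 and 38 counts over the 9 mice. Olfr1121 had no count in the 3 controls, 0, 11 and 0 counts at 1% and 12, 8 and 7 counts at 100%. Its 1% mouse of replicate 2 was thus above the 100% mouse. Olfr1182 had no count in any mouse of replicate 1 and 5 to 18 counts in controls and at 100% of the others. At 1% it had 0 and 4.77 counts in replicates 2 and 3.

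Genes that act beside ORs were read from lists. Of 10 activity genes, 4 rose at 100% heptanal with the block, namely Fos, Fosb, Egr1 and Nr4a1, which are induced in active neurons, and 1 without it, Fosb. Fosb had 1.77 to 3.87 CPM in controls, 6.49 to 8.86 CPM at 1% and 67.1 to 95.6 CPM at 100%. At 1%, 0 of the 10 were called. Of 13 genes of odor transduction, Gng13, a G protein subunit, and Omp, a marker of mature OSNs, rose at 100% with the block, with log2 fold changes of 1.41 and 1.11 and adjusted p of 0.0230 and 0.0311, and 0 did without it. With scaling over ORs alone and no block Omp was at -0.000255. Of 12 genes of OR choice and trafficking, such as Lhx2, Ldb1 and Rtp1, 0 were called in any comparison with or without the block. They summed to 1252 to 1993 CPM in replicate 1 and 1634.7 to 2287 CPM in the others, and most of this was Lhx2 and Atf5. Taken singly, Rtp1 had 12.7 to 119.2 CPM in replicate 1 and 222.1 to 397.9 in the others. Cbx5 and Ldb1 were also lower in replicate 1 without overlap, and the rest of this list overlapped. Of the odor transduction genes, Slc12a2 and Pde1c were lower in replicate 1 without overlap, and the rest overlapped.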

How the data were processed

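The authors reverse-transcribed pS6-IP RNA with poly-T primers, amplified the cDNA by PCR and sequenced 50-base single-end reads. They aligned reads to mm10 with Bowtie and counted them with bedtools on genes, with OR gene models taken from an earlier study. The 9 deposited tables have no header and 21 columns. Column 2 was taken as counts of uniquely mapped reads. The further columns were taken as estimated counts that add reads of up to 20 places by the authors' rescue scheme. This reading rests on the values and the study's methods, and the weights of the scheme are not given in the sources used here. Column 21 was used here, rounded for tests. Replicate numbers follow accession order, and the pairing rests on the shared age label. Deviations of same-replicate mice from their group means correlated at 0.165 to 0.745 over 9 pairs and 14930 genes (mean 0.555), so the block is printed where it changes a count.

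The tests were run in R 4.3.3 with edgeR 4.0.16 (filterByExpr, TMM, glmQLFit, glmQLFTest, 3 groups, no block), after the study's use of edgeR, with Benjamini-Hochberg adjustment over all genes tested. The SE is the log2 fold change over the square root of F. DESeq2 1.42.0, uniquely mapped counts, other scalings and filters, and leaving out each mouse were alternatives. CPM values were computed from the estimated counts with TMM factors. Mice of 1 group differed by 29.8 to 110.5 chi-square per degree of freedom, far beyond sampling noise. The fits were tested on simulated data, with changes placed only in genes of higher counts than most members. That test does not show how often a change in a low-count member would be called.

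Members and gene lists were chosen with earlier results of these data known. Named members were the 10 with the highest mean CPM, those called in either fit (0), the 6 and 4 with the lowest p at 100% and 1% heptanal with the block, 3 the study examined elsewhere, and the 5 highest and 2 lowest in multi-mapped share. A few neighbours and relatives were named after their values were seen. Positions came from GENCODE M21 or RefSeq by name and sequences from the GRCm38.p6 genome.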

Additional observations from a re-analysis of the deposited data

How the results depend on the processing

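No member was called without the replicate block under any alternative run. With the block, members called at 100% heptanal against control were 1 with adjustment over ORs, 8 with scaling to OSN markers (5 higher, 3 lower), 10 with TMM over ORs (5 higher, 5 lower) and 3 with DESeq2, where 40, 59, 82 and 49 of the 385 other ORs were called. For 100% against 1% heptanal they were 3, 8 (all higher), 14 (7 higher, 7 lower) and 5, where 62, 103, 108 and 63 other ORs were called. Both scalings lower the median of all genes at 100%, by 0.80 and 1.06 on the log2 scale, so these calls are relative to OSN markers or to other ORs. At 100% against control they called 12.7% and 15.9% of members, and 15.3% and 21.3% of other ORs. At 100% against 1% they called 12.7% and 22.2% of members, and 26.8% and 28.1% of other ORs. The share of all genes called under these scalings is not given, so the member counts can be read only beside other ORs. Leaving out single mice gave 0 calls at 1% and at 100% heptanal, with or without the block, and 0 to 1 for 100% against 1%, the 1 being Olfr1260 without the 1% mouse of replicate 3, with the block. Leaving out all 3 mice of replicate 1, chosen after seeing the data like the blocked fits without single mice, gave 0 calls in each comparison.

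The median log2 fold change of members minus that of other ORs was -0.34 at 100% heptanal, -0.80 without the filter on low counts and -0.66 without the filter but with the block, with more low members tested. Leaving out single mice gave -0.74 to 0.49, the lowest without the 100% and the highest, with the block, without the control mouse of replicate 2. At 1% heptanal it was 0.07, and single mice left out gave -1.26 to 0.46, the lowest without the 1% mouse of replicate 3. The sign at 1% also turned, among others, with the block (-0.25), with the block under scaling to OSN markers (-0.24), TMM over ORs (-0.33), uniquely mapped counts (-0.21) and DESeq2 (-0.29), and without the filter (-0.07). The sign at 100% turned when the control mouse of replicate 2 was left out and under no other alternative run. With at least 10 counts as the limit, 44.3 members were detected per mouse instead of 92.1. The median multi-mapped share over members with at least 10 counts was 7.85%, against a mean of 11.8% for summed counts per mouse. Leaving out single mice gave 86.4 to 99.6 members detected, a multi-mapped share of 11.1% to 12.2% and a member share of OR counts of 6.01% to 6.83%. At 100% heptanal Olfr1193 had -0.13 and, with the block, -0.10 with TMM over ORs. Olfr1264 had -1.03 to 0.077 when single mice were left out, with 0.077 without the control mouse of replicate 2, 0.07 without the 100% mouse of replicate 3 and 0.05 without the latter with the block. Olfr1198 had -0.011 with TMM over ORs and, when single mice were left out, -0.22 to 2.92. Omp had -0.000255 with TMM over ORs. For Olfr1200, Olfr1212, Olfr1184, Olfr1241, Olfr1260, Olfr1238 and Gng13 at 100% and Olfr1126, Olfr1015, Olfr1303 and Olfr1302 at 1%, no alternative that tested the gene turned the direction. The members among these were chosen by low p with the block, so their steady direction is no separate support for a change. At a median of 6 counts per member over 9 mice, depth limits what can be said of most members.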
